A study of Mus musculus with 2 samples.

Results

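The globin genes were followed across both libraries of embryonic day 11.5 mouse liver. The members were taken from a list of 10 symbols, matched through Ensembl gene identifiers to the gene and transcript tables. Of these, 9 genes were found among 43346 Ensembl gene rows, 5 of the alpha type (Hba-x, Hba-a1, Hba-a2, Hbq1a and Hbq1b) and 4 of the beta type (Hbb-y, Hbb-bh1, Hbb-bs and Hbb-bt). Ahsp, which encodes a chaperone of free alpha globin, had no match in the symbol tables and was not analysed here.

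Both libraries belong to 1 group of healthy B6NCrl embryos, with no genetic change or treatment named in the labels. Livers of male and female embryos were pooled within each biological replicate, and the label of replicate 1 counts 109 embryos. Total RNA equal to that of 1 cell entered each SmartSeq library, together with spike-in RNAs. The libraries held 33289699 (replicate 1) and 32607453 (replicate 2) expected counts, and the globins took 4.48% and 4.14% of them. With 1 group of 2 libraries there is no contrast to test, so levels are given per library or as mean ± SD (n = 2), without p-values. The assay title in the labels says single-cell, but the RNA came from pooled livers, and the libraries are treated here as pooled tissue. In such a sample more cells of a type and more RNA per cell cannot be told apart.

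Haemoglobin joins alpha-type and beta-type globin chains around haem. In the mouse the alpha-type genes lie on chromosome 11 and the beta-type genes on chromosome 7, each in a cluster with the embryonic genes first. Primitive red cells, made in the yolk sac, circulate at this age and use the embryonic chains Hba-x (zeta), Hbb-y (epsilon-y) and Hbb-bh1 (beta-h1) beside alpha chains. The fetal liver then makes definitive red cells, which use the adult chains. Hbq1a and Hbq1b encode theta globins, which have no settled role.

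The copies are the difficulty in measuring this family, and their coding sequences show why. The first 2 stretches lie in exon 3 of the adult alpha genes, at chr11:32297130-32297190 for Hba-a2 and chr11:32284313-32284373 for Hba-a1 (plus strand, GRCm38, equal to mm10). They span coding bases 351 to 411, counted from the A of the start codon. The next 2 lie in exon 3 of the adult beta genes on the minus strand, at chr7:103812659-103812713 for Hbb-bt and chr7:103826668-103826722 for Hbb-bs, and span coding bases 387 to 441. The last 2 lie in exon 1 of the theta genes, at chr11:32287058-32287107 for Hbq1b and chr11:32300163-32300212 for Hbq1a (plus strand), and span coding bases 46 to 95. Sequences are from GENCODE M21 transcripts, written 5′ to 3′, and capitals mark the bases that differ within each pair.
Hba-a2: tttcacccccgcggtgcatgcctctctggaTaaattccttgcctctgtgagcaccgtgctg
Hba-a1: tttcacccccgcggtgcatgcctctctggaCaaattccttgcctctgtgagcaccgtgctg
Hbb-bt: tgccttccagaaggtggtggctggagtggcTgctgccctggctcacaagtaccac
Hbb-bs: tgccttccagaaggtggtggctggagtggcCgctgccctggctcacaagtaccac
Hbq1b: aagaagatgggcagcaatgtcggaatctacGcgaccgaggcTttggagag
Hbq1a: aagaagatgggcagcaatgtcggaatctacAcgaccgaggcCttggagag

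Hba-a1 and Hba-a2 were identical at 425 of 426 coding bases. The difference, T381C from Hba-a2 to Hba-a1, leaves codon 127 unchanged in meaning, so the 142 encoded residues are the same. Hbb-bt and Hbb-bs were identical at 440 of 441 coding bases, with T417C from Hbb-bt to Hbb-bs in codon 139, and encode the same 147 residues. The theta pair was less alike. Hbq1b (426 coding bases) and Hbq1a (435) matched at 408 of 435 aligned bases and 125 of 148 aligned residues. Hba-x shared 63.8% of aligned coding bases with Hba-a1, and Hbb-y shared 76.4% with Hbb-bh1, so these embryonic genes stand well apart from their neighbours in sequence.

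The effective lengths in the tables correspond to windows of 100 bases, and such windows show how much of each transcript can tell copies apart. Every window of the transcripts of Hba-x, Hbb-y and Hbb-bh1 occurred in that gene alone. The protein-coding transcript of Hba-a1 had 600 windows, of which 339 also occurred in Hba-a2. Of the 261 windows found only in Hba-a1, 100 covered coding base 381 and 161 lay upstream of it. The 161 depend on annotation. This model begins well before its RefSeq start, and that of Hba-a2 close to its own. None of 230 bases compared before the RefSeq starts differed between the 2 genes, so the 161 do not show a difference in sequence. The coding transcript of Hba-a2 had 455 windows, and 116 of them occurred in that gene alone, 100 of these over the same base. For Hbb-bt 273 of 604 windows and for Hbb-bs 198 of 529 were found in the gene alone, again with 100 over the base that differs. The theta genes kept 340 of 463 windows (Hbq1b) and 382 of 505 (Hbq1a) to themselves. The counts come from a later annotation in which the models of Hbb-bs, Hbb-y and Hbb-bh1 are shorter than in the deposited tables, at 628 against 778, 633 against 661 and 613 against 614 bases for their first coding transcripts. The retained-intron model of Hbb-bs differs more, at 344 against 549 bases.

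Stretches before the transcription starts are shown because the theta genes lie next to the highest genes of the family and were read at far lower levels. Each runs from 150 to 10 bases before the RefSeq start (GRCm38.p6) and lies outside the annotated globin exons. They are at chr11:32296342-32296482 for Hba-a2 (plus strand), chr7:103853217-103853357 for Hbb-y (minus strand), chr11:32286814-32286954 for Hbq1b and chr11:32299919-32300059 for Hbq1a (both plus strand). Capitals mark 5 motifs on either strand: CACCC, known to be bound by Klf factors, the box written CCAAT, the Gata motif written GATAA, the common start-site form TATAA and its variant spelled ATAAA. The last 3 of these can overlap one another.
Hba-a2: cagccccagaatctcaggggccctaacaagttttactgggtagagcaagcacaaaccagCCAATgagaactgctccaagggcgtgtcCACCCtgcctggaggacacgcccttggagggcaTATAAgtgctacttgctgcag
Hbb-y: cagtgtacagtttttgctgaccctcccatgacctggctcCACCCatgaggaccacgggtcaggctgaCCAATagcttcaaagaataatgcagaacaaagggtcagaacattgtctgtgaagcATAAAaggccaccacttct
Hbq1b: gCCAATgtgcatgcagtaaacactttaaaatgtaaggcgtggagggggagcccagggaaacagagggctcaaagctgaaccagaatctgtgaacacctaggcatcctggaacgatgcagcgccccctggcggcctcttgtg
Hbq1a: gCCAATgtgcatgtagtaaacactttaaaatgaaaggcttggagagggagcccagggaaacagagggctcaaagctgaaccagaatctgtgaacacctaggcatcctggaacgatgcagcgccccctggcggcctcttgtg

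In Hba-a2 the motif CCAAT began 91 bases, CACCC 63 bases and TATAA 30 bases before the start. In Hbb-y CACCC began 111 bases, CCAAT 83 bases and ATAAA 28 bases before it. Both theta stretches held CCAAT at 149 bases and none of the other motifs. RefSeq gave windows for 8 of the 9 genes. In 6 of the 8, TATAA or ATAAA stood on the gene's strand 21 to 40 bases before the start, against 5.20% of 32851 promoters, and the 2 without it were Hbq1a and Hbq1b. Over the whole 250 bases before the start and on either strand, CACCC was found in 6 of 8 (52.0% of all promoters), CCAAT in 7 (33.8%), GATAA in 6 (22.6%), TATAA in 6 (22.8%) and ATAAA in 3 (37.3%). These matches describe letters in a window. The copies of each pair were compared over this region at a fixed shift, without gaps. Hba-a1 and Hba-a2 did not differ at any of 230 compared bases, and Hbq1a and Hbq1b differed at 10 of 230. Hbb-bs and Hbb-bt mismatched at 112 of 230, but no fixed shift aligns this pair throughout. TATAA began 29 bases before the start in Hbb-bs and 28 in Hbb-bt, while GATAA began 209 and 204 bases before it. The 112 therefore depends on the shift, and how alike these beta promoters are was not measured.

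Adult alpha globin was the most abundant product. The level used below is TPM, reads per base of transcript scaled to the same total in each library, so genes of different length can be compared. Hba-a2 (chr11:32296489-32297298) had 31827 TPM in replicate 1 and 28553 in replicate 2, ranking 1st of all Ensembl genes in both. Hba-a1 (chr11:32283511-32284465) had 15484 and 14841 TPM and ranked 3rd in both. The libraries kept the same order, with Hba-a2 above Hba-a1 by far more than either gene's spread. Because reads can pass between these copies, their sum is the firmer value, at 47311 and 43394 TPM, or 48.3% and 48.8% of all globin TPM.

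Embryonic zeta globin, Hba-x (chr11:32276400-32278116), had 6430 TPM in replicate 1 and 6260 in replicate 2, with rank 10 in both. It had the smallest spread of the 9 genes, with a coefficient of variation of 1.90%. Hba-x held 11.9% of alpha-type TPM in replicate 1 and 12.6% in replicate 2 (12.3% ± 0.462, SD, n = 2).

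The theta globins were the minor members. Hbq1b (chr11:32286965-32287784), between Hba-a1 and Hba-a2, had 69.5 TPM from 993 reads in replicate 1 and 18.7 TPM from 254 reads in replicate 2. It ranked 2098th and 5056th. Hbb-bh1, the lowest of the 7 high globins, stood 69.3-fold above Hbq1b in replicate 1 and 245-fold above it in replicate 2. Hbq1a (chr11:32300069-32300873), past Hba-a2, had 0.0900 TPM from 1.35 expected reads in replicate 1 and was listed at 0 in replicate 2. Both libraries are under the 3 reads that a count of 0 allows, or 0.0901 CPM (reads scaled to a common library total without regard to length) in replicate 1 and 0.0920 in the other, which covers counting error only. Hbq1a was thus not detected in either of these libraries, although 75.6% of its windows belong to it alone. Together the theta genes held 0.129% and 0.0376% of alpha-type TPM (0.0835% ± 0.0649, SD, n = 2).

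**Figure D1:**
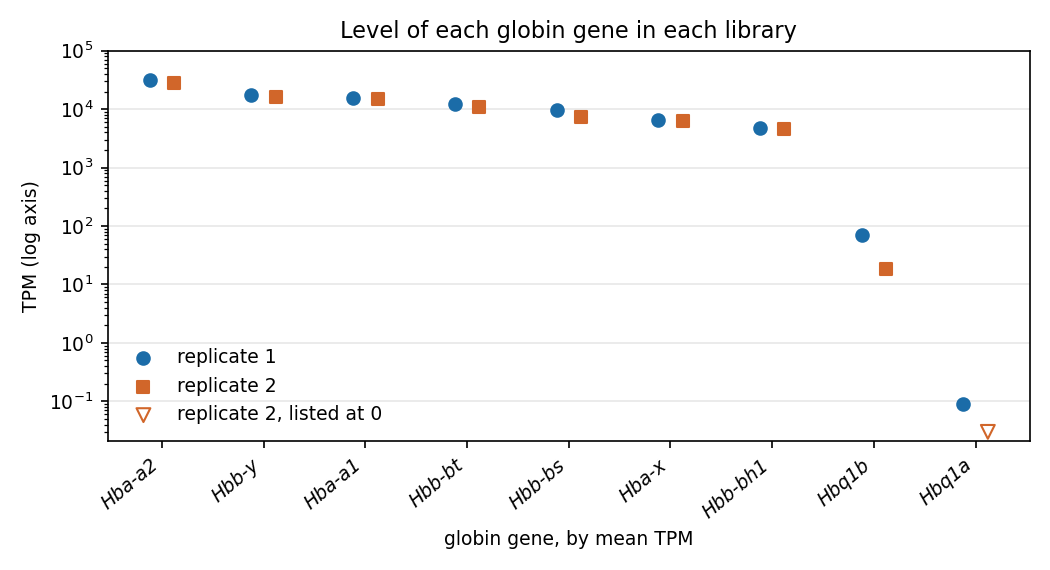
TPM on a log axis for each of the 9 globin genes, ordered by mean TPM, with a circle for replicate 1 and a square for replicate 2; the open triangle marks a value listed at 0. The 7 high globins sit between 4565 and 31827 TPM in both libraries, Hbq1b at 69.5 and 18.7, and Hbq1a at 0.0900 and 0.

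Among beta-type genes the embryonic Hbb-y was highest. Hbb-y (chr7:103851749-103853216) had 17435 TPM in replicate 1 and 16196 in replicate 2, ranking 2nd of all genes in both. Hbb-bh1 (chr7:103841637-103843164), the other embryonic beta chain, had 4817 and 4565 TPM, with ranks 14 and 15. The adult Hbb-bt (chr7:103812524-103813996) had 12291 and 11058 TPM and ranked 4th in both. Its copy Hbb-bs (chr7:103826534-103828096) had 9697 TPM in replicate 1 and 7375 in replicate 2, with ranks 5 and 7. Hbb-bs had the widest spread of the 7 high globins, with a coefficient of variation of 19.2%, and both its values lay between those of Hbb-bt and Hba-x.

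The sum of the adult pair Hbb-bs and Hbb-bt, 21988 and 18433 TPM, lay near the sum of Hbb-y and Hbb-bh1, 22252 and 20761. In replicate 1 the sums differed by less than either one's spread between libraries. In replicate 2 the embryonic sum was higher by more than its own spread (SD 1054), though by less than that of the adult pair (SD 2514). The embryonic genes held 50.3% and 53.0% of beta-type TPM (51.6% ± 1.89, SD, n = 2). Alpha-type TPM was 53811 and 49673 and beta-type TPM 44240 and 39194, a ratio of 1.22 in replicate 1 and 1.27 in replicate 2. By TPM the order of levels was Hba-a2, Hbb-y, Hba-a1, Hbb-bt, Hbb-bs, Hba-x, Hbb-bh1, Hbq1b and Hbq1a in both libraries, and no 2 neighbours in it overlapped between the libraries. The order was not the same in other units. By coding transcripts alone the mean of Hba-a1 was 4394 TPM and that of Hbb-bs 2837, both below the means of Hba-x and Hbb-bh1. Hba-a1 was below Hbb-bh1 in replicate 1 alone, at 3870 against 4817 TPM, with 4917 against 4565 in replicate 2. By CPM, reads without length scaling, Hbb-bt stood above Hba-a1 in replicate 1 (6592 and 6135) but not in replicate 2 (6017 and 6190).

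**Figure D2:**
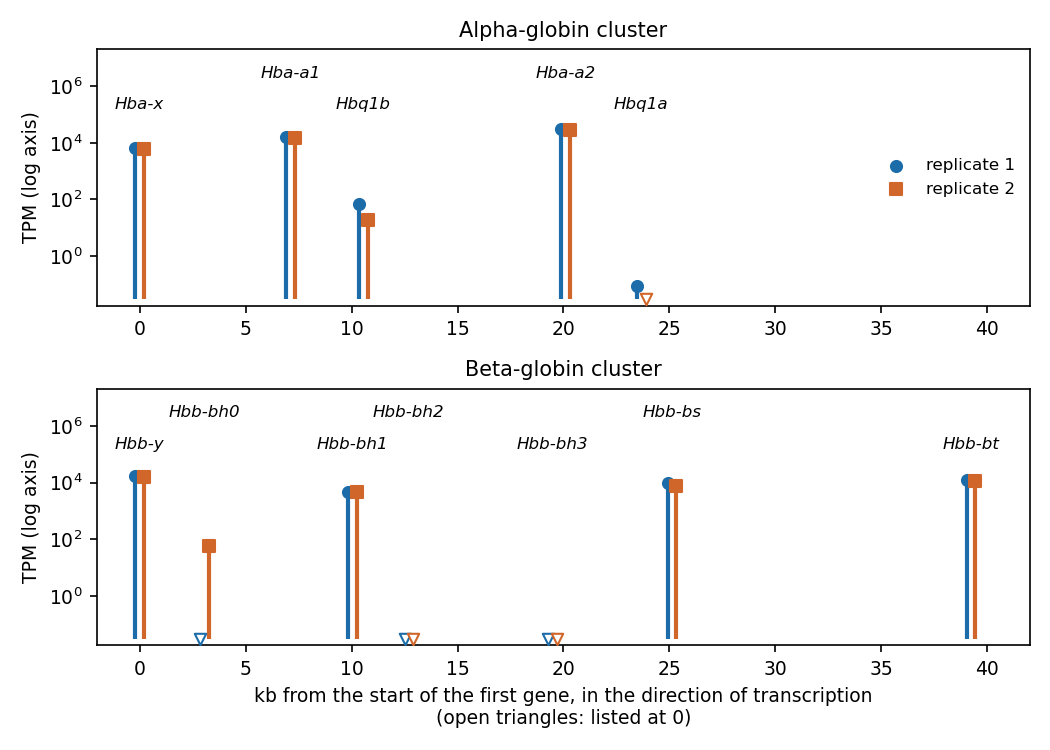
TPM on a log axis against distance in kb from the start of the first gene of each cluster, in the direction of transcription; circles are replicate 1, squares replicate 2 and open triangles values listed at 0. In the alpha cluster Hbq1b, 10.56 kb from the start of Hba-x, sits between Hba-a1 at 7.11 kb and Hba-a2 at 20.09 kb, and in the beta cluster Hbb-bh2 and Hbb-bh3 are listed at 0 in both libraries.

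How TPM was divided within each copy pair depended on which transcripts were counted. Hba-a1 held 32.7% of the Hba-a1 and Hba-a2 sum in replicate 1 and 34.2% in replicate 2 (33.5% ± 1.04, SD, n = 2). The deposited posterior SD of the reads was 563 in replicate 1 for each copy, 0.276% of the Hba-a1 reads, and 611 in replicate 2. With the annotated protein-coding transcripts alone, Hba-a1 held 10.8% and 14.7%. With all reads of a gene divided by the effective length of its first coding transcript, it held 26.6% and 28.6%. That transcript is annotated at 699 bases in Hba-a1 and 554 in Hba-a2. As reads without length scaling, Hba-a1 held 32.3% and 34.6%. Hba-a2 stayed the higher copy in each of these estimates, by a margin that differed more between estimates than between libraries.

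Hbb-bs held 44.1% of the Hbb-bs and Hbb-bt sum in replicate 1 and 40.0% in replicate 2 (42.1% ± 2.89, SD, n = 2). It held 20.5% and 18.5% by coding transcripts alone, and 37.9% and 34.0% by all reads over the length of the first coding transcript. Hbb-bt was thus the higher copy under each estimate, and the posterior SD of the reads, 428 in replicate 1 and 376 in replicate 2, was again small beside the gap between estimates. Hbq1a held 0.129% and 0% of the theta sum.

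The embryonic shares moved less. By coding transcripts alone Hba-x held 15.5% of the alpha type and Hbb-y with Hbb-bh1 held 59.7% of the beta type (means, n = 2). Counted as reads without length scaling, Hba-x held 16.8%. The embryonic share was higher in the beta cluster than in the alpha cluster in both libraries under each of the 5 estimates.

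**Figure D3:**
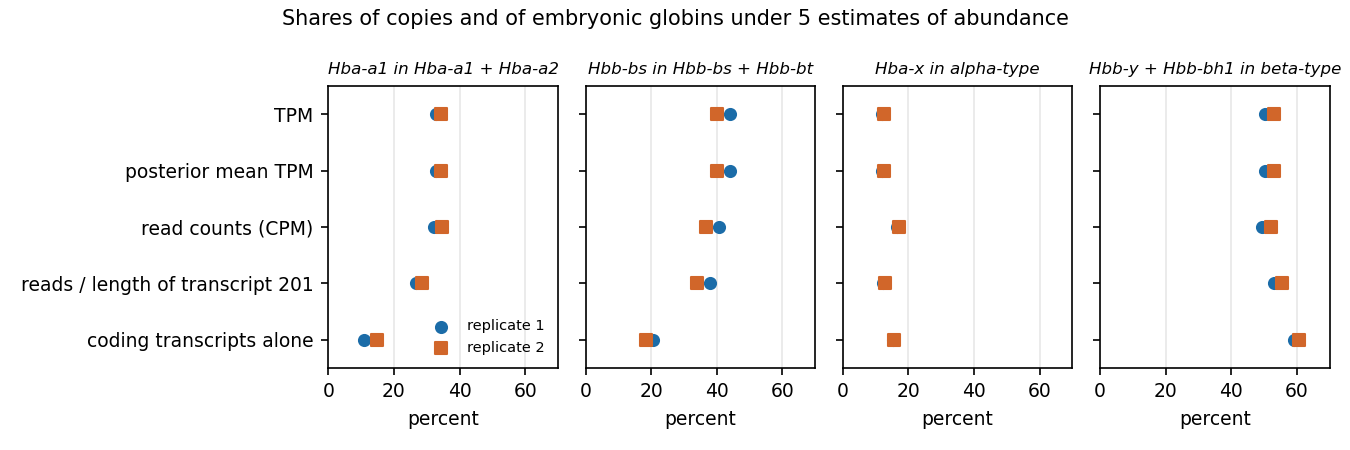
Percent held by Hba-a1 in its pair, by Hbb-bs in its pair, by Hba-x in the alpha type and by Hbb-y with Hbb-bh1 in the beta type, for 5 estimates of abundance; circles are replicate 1 and squares replicate 2. The copy shares fall from 33.5% and 42.1% by TPM to 12.8% and 19.5% by coding transcripts alone, while the embryonic shares move from 12.3% to 15.5% and from 51.6% to 59.7%.

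The transcript tables give the make-up of each gene. The 9 genes have 15 transcripts, 11 protein-coding and 4 annotated as retained introns, meaning that the model keeps intron sequence and is not listed as coding. The retained-intron models held 18156 TPM in replicate 1 and 14792 in replicate 2, or 18.5% and 16.6% of globin TPM. Nearly all of this lay in 2 of them. That of Hba-a1 had 11613 and 9924 TPM, 75.0% and 66.9% of the gene. That of Hbb-bs had 6530 and 4867 TPM, 67.3% and 66.0% of the gene. In each copy pair the other member was read almost wholly from a coding transcript, with 31825 and 28552 TPM for that of Hba-a2 and a single transcript for Hbb-bt.

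The retained-intron model of Hba-a1 can hardly be told from other alpha transcripts by sequence. None of its 395 windows of 100 bases was its own. Of these, 188 occurred also in both coding transcripts of the pair and in the retained-intron model of Hba-a2, 96 only in the coding transcript of Hba-a1, and 111 only in the retained-intron model of Hba-a2. The latter likewise had no window of its own. The tables nevertheless placed 135595 and 115158 reads on the model of Hba-a1 and 21.4 and 10.6 reads on that of Hba-a2. The coding transcript of Hba-a1, of which 27.5% of windows were its own by annotation, had 68644 reads in replicate 1 and 86674 in replicate 2, with 3870 and 4917 TPM. It was the one coding transcript of the high globins, besides the minor short model of Hbb-bs, with more TPM in replicate 2.

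Hba-x was divided between 2 coding transcripts in nearly the same way in both libraries, with 79.4% and 79.5% in the longer transcript (801 bases) and the rest in the shorter (579 bases). The coding transcript of Hbq1b held 84.3% of the gene in replicate 1 and all of it in replicate 2, since the retained-intron model was assigned 190 reads in the first library and no read in the other. A short coding model of Hbb-bs (407 bases) had 25.9 reads in replicate 1 and 620 in replicate 2, 0.93% of Hbb-bs there. The transcript with the highest TPM was the same in both libraries for 5 of the 5 globins with several transcripts. The same held for 60.0% of 5584 genes averaging 1 TPM or more, and for 95.8% of 96 genes averaging 1000 or more. Of the 5 globins, Hbq1b lies far below the second of these levels.

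**Figure D4:**
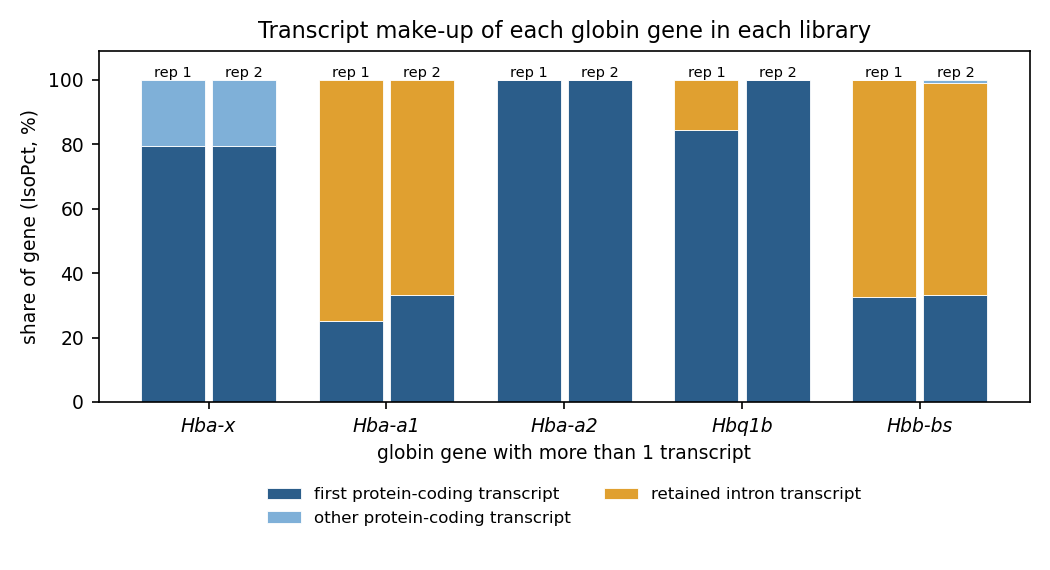
Stacked bars give the percent of each gene's abundance assigned to each transcript (IsoPct) for the 5 globins with several transcripts, 1 bar per library; dark blue is the first coding transcript, light blue another coding transcript and orange a retained-intron model. Orange fills 75.0% and 66.9% of Hba-a1 and 67.3% and 66.0% of Hbb-bs, and is close to 0 in Hba-a2.

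The 7 high globins differed little between the replicates. Their TPM was higher in replicate 1 for 7 of 7, by 1.03-fold (Hba-x) to 1.31-fold (Hbb-bs). As CPM, 6 of 7 were higher in replicate 1, and Hba-a1 was at 0.991 times its replicate 2 value. After centring log2(TPM + 1) ratios on the median gene, 5 of 7 were lower in replicate 2, against 37.7% of the 151 genes averaging 1000 TPM or more. The centred log2 ratios of replicate 2 over replicate 1 ran from -0.32 for Hbb-bs to 0.03 for Hba-x. Their median size was 0.04, against 0.21 over those 151 genes. The 151 include the 7 globins, which ranked between 1 and 15, and the comparison was not matched for level. Centred on the spike-ins instead, whose median log2 ratio was 0.42, the 7 genes had a median of -0.52.

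Ratios between the globins were compared as well. Over the 21 pairs of the 7 high globins, the ratio of TPM changed between libraries by a median of 1.06-fold. The widest change, 1.28-fold, was in Hba-x to Hbb-bs, at 0.663 in replicate 1 and 0.849 in replicate 2. Leaving out the 6 pairs with Hbb-bs, no pair changed by more than 1.09-fold. Hba-a2 to Hbb-bt, the highest adult chain of each cluster, was 2.59 and 2.58.

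Hbq1b stood apart in this comparison. Its TPM was 3.72-fold higher in replicate 1, a centred log2 ratio of -1.77 on the log2(TPM + 1) scale. It was the 1 of 8 globins averaging 1 TPM or more that was past 2-fold, against 61.1% of all 10351 genes at that level, so differences of this kind were common in these libraries. Past 2-fold were also 52.4% of the 3352 genes averaging 20 to 100 TPM, the band of Hbq1b, and 1.99% of the 151 genes averaging 1000 or more. Within the band, 69.3% of genes had a smaller ratio than Hbq1b. The non-globin genes nearest to it in level over both libraries were Dnajb1 (67.8 and 19.3 TPM), Fuom (69.8 and 19.5) and Gtf2i (69.0 and 19.6), at distances of 0.0578 to 0.0698 in log2(TPM + 1).

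**Figure D5:**
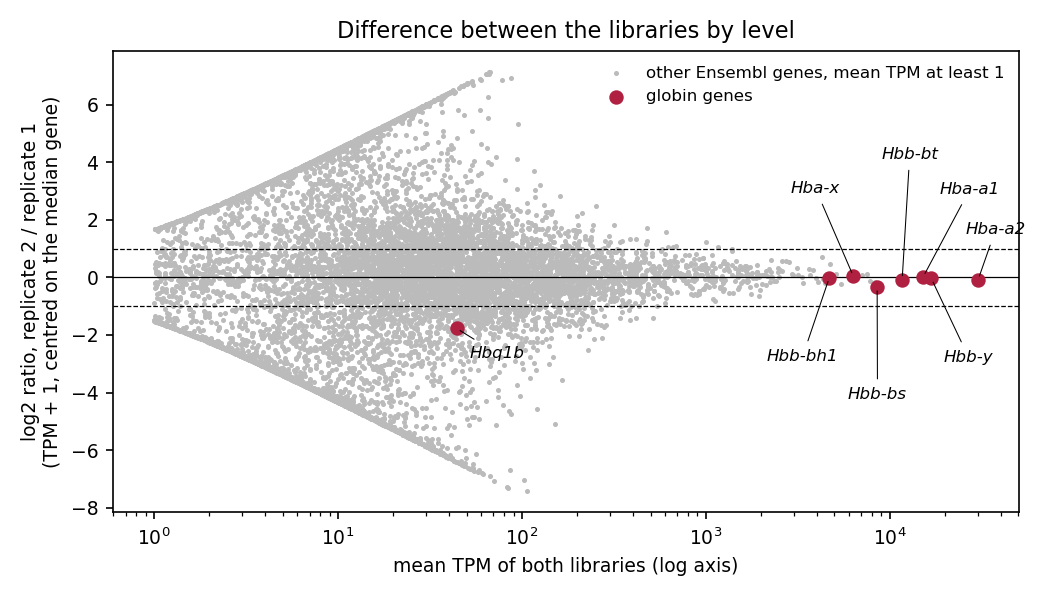
Centred log2 ratio of replicate 2 over replicate 1 in TPM + 1 against mean TPM on a log axis, with grey points for Ensembl genes averaging 1 TPM or more, red points for globins and dashed lines at a 2-fold difference. The 7 high globins lie between -0.32 and 0.03, and Hbq1b lies at -1.77 among genes of its level with ratios as wide.

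The genes listed as neighbours of the clusters had no read or were far lower than the 7 high globins. No read need not mean a silent gene in libraries made from the RNA of 1 cell. Nprl3, for example, had 1 read in replicate 1 and 2279 in replicate 2. In the beta cluster Hbb-bh2, a beta-like gene, and the pseudogene Hbb-bh3 had no read in either library. The pseudogene Hbb-bh0, next to Hbb-y, had no read in replicate 1 and 50 in replicate 2. Those 50 reads gave 56.7 TPM because its effective length is 30 bases, while its CPM was 1.53. All 29 matched olfactory receptor genes within 200 kb of the beta cluster had no read in either library. Beyond them Rrm1, a subunit of ribonucleotide reductase, was read at 199 and 138 TPM, and Stim1 and Trim21 had no read.

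Of 8 genes listed by symbol as alpha-locus neighbours, 5 reached 1 TPM in both libraries. Their distances from the mouse cluster were not checked, so some may not lie near it. The highest were Snrnp25, a spliceosome protein gene, with 107 and 128 TPM, Luc7l with 71.6 and 61.6, and the DNA repair glycosylase gene Mpg with 16.4 and 39.4. Nprl3, whose introns hold the known enhancers of the alpha genes, had 0.110 TPM in replicate 1 and 44.2 in replicate 2. Past 2-fold were 4 of the 7 genes of this list averaging 1 TPM or more, beside 61.1% of all genes. The globins outside the clusters, Mb (myoglobin), Cygb, Ngb and Adgb, were all under 1 TPM in both libraries.

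Of 24 genes listed as regulators of globin transcription, 19 reached 1 TPM in both libraries, 3 in replicate 1 alone and 2 in replicate 2 alone. The highest were Gata1, the erythroid zinc finger factor, with 237 TPM in replicate 1 and 51.4 in replicate 2, the chromatin remodeller Atrx with 65.9 and 211, and Lmo2, a bridging protein of the erythroid complex, with 181 and 85.9. Klf1, which activates adult beta globin, had 136 and 102 TPM. Bcl11a, a repressor of embryonic beta-type genes, had 79.7 and 58.1. Of the 23 regulators averaging 1 TPM or more, 14 were past 2-fold, 8 of them higher in replicate 1 and 6 in replicate 2, close to the 61.1% of all genes. The median log2(TPM + 1) of the list was 2.95, so most were read far below the 7 high globins.

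Genes of haemoglobin assembly and red cell protein care were read at a median log2(TPM + 1) of 6.03. Of 18 matched genes, 16 reached 1 TPM in both libraries and 2, Ube2o and Ulk1, in neither. The highest were the chaperones Hspa8 (2406 and 1481 TPM) and Hsp90aa1 (1810 and 1593) and the peroxidase gene Prdx2 (1360 and 1131). Alas2, the first enzyme of erythroid haem synthesis, had 121 and 184 TPM, and Fech, the last, 165 and 139. Past 2-fold were 2 of 16, Hmox1 (148 and 54.9) and Slc25a38 (129 and 38.4), both higher in replicate 1. The share over all genes was 61.1% from 1 TPM up, 52.4% at 20 to 100 TPM and 1.99% from 1000 TPM up, so it depends on level, and the difference from the regulators was not tested. Each of the 7 high globins stood above every gene of the list in TPM.

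The label of liver was checked on markers fixed for each cell type. All 8 hepatoblast markers were read in both libraries, with summed levels of 11918 and 10453 TPM led by Afp, the fetal serum protein, at 4870 and 4016. The 7 erythroid markers reported here were read in both libraries as well, among them Ermap at 398 and 386 TPM and Hemgn at 277 and 82.1. Their summed level, 1032 and 709 TPM, leaves out a part of the erythroid list. Of the 7, 2 were past 2-fold, Hemgn and Epb42 (41.2 and 3.88 TPM), both higher in replicate 1, beside 61.1% of all genes, and their median centred log2 ratio was -0.49. No order of the libraries in red cell markers is read from this incomplete list, and the part of red cell number in the globin levels was not tested. In both libraries 3 of 5 macrophage, 4 of 4 megakaryocyte, 2 of 4 endothelial and 3 of 4 mesenchymal markers reached 1 TPM, and Cd68 was at 0 in both.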

How the data were processed

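RNA of 2 liver libraries was read from deposited gene and transcript tables (mm10, GENCODE M4, per the labels and file headers). Aligner and quantification program: not given in the sources used here. Deposited expected counts are the authors' estimated reads and need not be whole. The deposited TPM values divide them by effective length and scale them to a fixed sum, and the deposited FPKM values, read but not reported, scale for length and depth. The percent of a gene held by each transcript (IsoPct) is also the authors'. Library totals were 33289699 and 32607453 expected counts.

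Symbols and coordinates came from GENCODE M21, promoters from RefSeq. The members and gene lists were chosen with earlier results of these data known. All members were named, and of each list the 3 highest by mean TPM; other genes named from a list were chosen after their values were seen. A gene was detected at a TPM of at least 1. Ratios between replicates used log2(TPM + 1), centred on the median of genes averaging 1 TPM or more, and a 2-fold rule of size without a test. This scale understates differences of low genes. The ratio step was checked on simulated data with counting noise alone. That check does not cover the wider differences between these libraries. Alternatives were posterior mean TPM, CPM, transcript sums, rescaled TPM, other pseudocounts, filters and centrings, and each library alone. Coding transcripts alone and all reads over 1 length were added after seeing the data. Windows of 100 bases were compared over all M21 transcripts. Python 3.11.15, pandas 2.3.3 and Biopython 1.88 were used. Ahsp was not analysed here. 1 erythroid marker of the list is not reported here.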

Additional observations from a re-analysis of the deposited data

How the results depend on the processing

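The share of Hba-a1 in its pair, 33.5% by TPM, was 12.8% by coding transcripts alone and 27.6% by all reads over the length of the first coding transcript. That of Hbb-bs, 42.1%, was 19.5% and 35.9% in these estimates and 38.7% by CPM. The embryonic share was 15.5% (alpha type) and 59.7% (beta type) by coding transcripts alone, 16.8% (alpha) by CPM, and 54.1% (beta) by all reads over 1 length. Hbq1a held 0.483% of its pair by posterior mean TPM against 0.0646% by TPM, both from under 3 reads. The cause of these moves was not tested. The coding-transcript and single-length estimates were chosen after seeing the data. Other alternatives moved these shares and the theta share by less than 1 SD. For some of them this was fixed in advance. With n = 2 each library alone lies within 1 SD of the mean, and rescaling to Ensembl genes cancels in a share. Transcript sums equalled the gene TPM. The SD of the theta share was also wide, at 0.0649 beside a mean of 0.0835. Hbq1b was the 1 globin past 2-fold, and 5 of 5 leading transcripts were shared, under each alternative run for them. In TPM scaled to Ensembl genes alone, the levels of Hba-x, Hba-a1, Hbb-y and Hbb-bh1 moved by more than 1 SD, to 6805, 16259, 18029 and 5030. By coding transcripts alone Hba-a1 had 4394 and Hbb-bs 2837 TPM, against 15162 and 8536. The Ahsp share and its alternatives were not run. No paired analysis was possible because the libraries form 1 group.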
